A study of Homo sapiens with 29 samples.

Results

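Human LHCN-M2 myoblasts that had received nontargeting siRNA were compared in 2 media at 96 h. There were 3 arrays of cells in differentiation media (replicates 1 to 3) and 2 arrays of cells in growth media (replicates 1 and 2), which are 5 of the 29 arrays of the series, and each was placed in its group by its labels. LHCN-M2 is a line of skeletal muscle precursors made immortal by added telomerase and CDK4, so every group carries both. The whole series knocked down the transcription factor ZNF148 or transfected nontargeting siRNA, both at 20 nM, and collected RNA at 24, 48 and 96 h. The cells compared here were confluent at 96 h in growth media, and the labels give no other drug or allele. As the screen of the study describes the media, growth media held serum, dexamethasone, hepatocyte growth factor and basic fibroblast growth factor, and differentiation media lacked these and held insulin and apo-transferrin. By the methods, differentiation media replaced growth media some time after the transfection, so the time since transfection may differ between the media and cannot be told apart from the medium. The labels call the samples biological replicates without saying whether they were separate cultures, so a p-value here measures the spread between these samples.

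Myoblasts are the dividing precursors of skeletal muscle. When serum and growth factors are withdrawn from a dense culture they leave the cell cycle, and the myogenic factors MYF5, MYOD1, MYOG and MYF6, with their MEF2 partners, switch on the genes of the contractile apparatus before the cells fuse into myotubes. The ID proteins, which bind the partners of the myogenic factors, hold this program back in growing cells.

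RNA of each sample was hybridized to a 1-colour Agilent array, and signals are given as quantile-normalized log2 values. Where several tested probes name a gene, the one that is brightest on average stands for it, which leaves 18398 genes with a tested probe, and levels of different genes are not compared, since probes differ in brightness. Genes counted as changed had a Benjamini-Hochberg adjusted p below 0.05 over the 38714 tested probes of 1 limma fit of the 29 arrays and differed more than 2-fold. Values called differences are differentiation minus growth media on the log2 scale, with the standard error (SE) of the fit. Across the tested probes the 2 growth media arrays correlated at 0.979, pairs of differentiation media arrays at 0.977 to 0.981, and pairs across media at 0.945 to 0.959. Between 46.1% and 54.1% of the probes of these 5 arrays were well above background. Both growth media arrays lay on 1 slide and the differentiation media arrays on 2 others, so within these 5 arrays slide and medium cannot be told apart, and only the arrays of other groups allow a fit with slide as a term. Another nontargeting array, replicate 1 at 48 h in growth media, stood apart from its group: the median log2 signal of 75 sarcomere genes was 11.01 on it and 6.39 and 6.45 on the other 2. It is not among the 5 arrays, but it widens the shared error of muscle genes, so results that rest on that error are also given from a fit of the other 28 arrays.

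Between the media, 2769 of the 18398 tested genes (15.1%) were changed at 96 h. Of these, 1252 (6.81%) were higher and 1517 (8.25%) were lower in differentiation media, and the arrays of the 2 media did not overlap for 2731 of the 2769. Lack of overlap alone was common, at 66.5% of all tested genes. With slide in the fit 1100 genes were higher and 1359 lower, and without the array that stands apart the counts were 1338 and 1523. More than 4-fold differences were seen for 491 genes that rose and 545 that fell, and more than 16-fold differences for 87 and 41. Of the rises, 196 were in genes well above background on some or all differentiation media arrays and on no growth media array. The opposite pattern, on some or all growth media arrays only, held for 220 of the falls. The transcript that the knockdown arms of the study target, ZNF148, had a log2 signal of 8.98 and 9.18 in growth media and 9.83, 9.79 and 9.70 in differentiation media. Its difference of 0.69 ± 0.15 (SE; adjusted p = 0.00113) was under 2-fold and was not called.

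**Figure D1:**
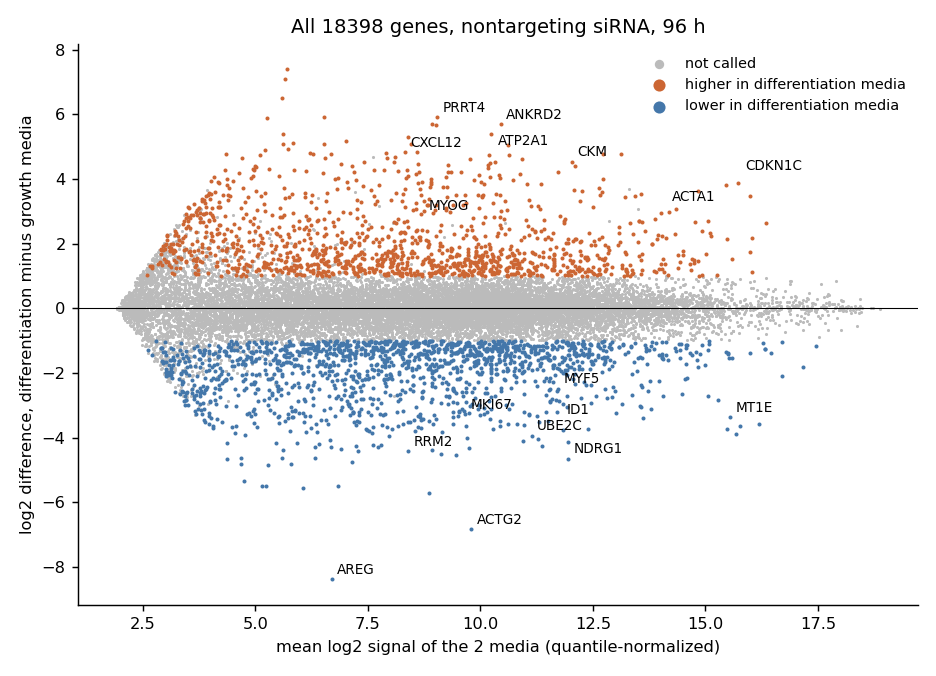
Each point is a gene with a tested probe, placed by the mean of its log2 signals in the 2 media (x axis) and its log2 difference, differentiation minus growth media at 96 h, nontargeting siRNA (y axis). Coloured points are the 1252 genes called higher and the 1517 called lower, and the labelled genes run from 5.90 for PRRT4 to -8.38 for AREG.

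Among changed genes measured on all 5 arrays and chosen for no overlap between the media, the 15 largest rises were taken. They included a fast-fibre calcium pump, a fast-fibre troponin and a stretch-responsive muscle protein. PRRT4 had log2 signals of 6.11 and 6.07 in growth media and 11.97, 11.95 and 12.05 in differentiation media. The difference was 5.90 ± 1.18 (SE; adjusted p = 0.000404), the largest of the 15. MUSTN1, a small nuclear protein of the musculoskeletal system, read 5.95 and 6.19 against 11.82, 11.53 and 11.96, a rise of 5.70 ± 0.91 (SE; adjusted p = 3.45e-05). ANKRD2, an ankyrin repeat protein of striated muscle that responds to stretch, went from 7.57 and 7.65 to 13.26, 13.21 and 13.43. Its rise was 5.69 ± 0.92 (SE; adjusted p = 3.82e-05). ATP2A1, the calcium pump of the sarcoplasmic reticulum in fast fibres, rose by 5.39 ± 1.03 (SE; adjusted p = 0.000258) and is described with the calcium genes. TNNC2, the fast-fibre troponin C, measured 10.36 and 10.29 in growth media and 14.85, 15.04 and 15.43 in differentiation media. It rose by 4.78 ± 1.54 (SE; adjusted p = 0.0195), and in the 28-array fit the SE was 0.23 with an adjusted p of 9.74e-13. It was not called with slide in the 29-array fit (adjusted p = 0.126) or without growth media replicate 1 or 2 (adjusted p = 0.0872 and 0.0879).

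The other large rises were not in muscle structure. CXCL12, a chemokine, had the smallest error of the group: its signals were 5.85 and 5.98 in growth media and 10.71, 10.73 and 10.78 in differentiation media. The rise was 4.83 ± 0.14 (SE; adjusted p = 9.15e-16). Over the processing alternatives it ran from 1.98 to 4.97, and its call was kept in all of them. CTSH, a lysosomal cathepsin, rose by 4.78 ± 0.16 and CD24, a surface glycoprotein, by 4.75 ± 0.17 (SE). PADI2, a peptidylarginine deiminase, rose by 5.67, MXRA5, a matrix remodelling protein, by 5.06, C1QL4 by 4.85, C1orf105 by 4.81 and EXOC3L4 by 4.73. The rise of C1orf105 was not called with slide in the fit (adjusted p = 0.114) or without growth media replicate 1 or 2 (adjusted p = 0.11 and 0.0649). With slide in the 28-array fit the rise of C1orf105 was 5.07 (adjusted p = 3.75e-06). The elastase genes CELA2A and CELA2B rose by 5.08 and 5.28, but they are near-identical copies whose probes may not tell them apart. Genes below background in growth media add bounds instead of fold changes: RGR was at least 40.4-fold higher, KCNIP3, a calcium-binding channel partner, at least 39.1-fold, LINC02532 at least 33.9-fold, SRL, the sarcoplasmic reticulum protein sarcalumenin, at least 26.5-fold and FGD3 at least 22.8-fold. SRL was not called with slide in the fit (adjusted p = 0.0591) or with normexp background correction (adjusted p = 0.0523).

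Among changed genes measured on all 5 arrays and chosen for no overlap between the media, the largest fall was that of an actin of smooth muscle. ACTG2, the gamma actin of enteric smooth muscle, had log2 signals of 13.22 and 13.21 in growth media and of 5.95, 6.74 and 6.44 in differentiation media. The difference of -6.84 ± 0.17 (SE; adjusted p = 7.87e-17) is a 114-fold fall. NDRG1, a stress-induced protein, measured 14.33 and 14.22 in growth media and 9.65, 9.67 and 9.56 in differentiation media, and its difference was -4.65 ± 0.12 (SE; adjusted p = 2.08e-16). The other falls of the 15 that are reported here ran from -4.54 to -4.14. They hold the co-receptor CD14, MPP4, the ribonucleotide reductase subunit RRM2, the protease inhibitor TIMP3, the hyaluronan synthase HAS2, the histone genes H1-5, H2AC16, H3C15 and H2AC11, the peptide hormone apelin (APLN), the secreted WNT inhibitor WIF1 and the integrin ITGA10. Genes that were measured in growth media and below background in differentiation media again give bounds. AREG, the growth factor amphiregulin, read 10.90 and 10.86 in growth media and 2.60, 2.34 and 2.58 in differentiation media, so it was at least 109-fold lower. STC1 was at least 26.4-fold lower, NTSR1 at least 16.6-fold, SERPINB3 at least 14.6-fold and TREM1 at least 13.9-fold.

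Promoter sequence is shown for a few of the genes with large changes, so that the motifs counted further on can be seen in place. The sequences are from RefSeq, on GRCh38.p14, and each is the 250 bases before the gene start in the direction of transcription. In the promoters of MUSTN1 (chr3:52835020-52835269, minus strand), ANKRD2 (chr10:97572191-97572440, plus strand) and CKM (chr19:45322876-45323125, minus strand) the capitals mark CAGCTG, an E-box of the kind that MYOD1 and MYOG bind.
MUSTN1: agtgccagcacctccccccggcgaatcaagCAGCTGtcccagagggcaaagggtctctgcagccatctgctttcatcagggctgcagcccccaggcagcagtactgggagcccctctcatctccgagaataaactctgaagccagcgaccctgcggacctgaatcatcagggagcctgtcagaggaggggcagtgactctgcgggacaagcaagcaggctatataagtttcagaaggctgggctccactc
ANKRD2: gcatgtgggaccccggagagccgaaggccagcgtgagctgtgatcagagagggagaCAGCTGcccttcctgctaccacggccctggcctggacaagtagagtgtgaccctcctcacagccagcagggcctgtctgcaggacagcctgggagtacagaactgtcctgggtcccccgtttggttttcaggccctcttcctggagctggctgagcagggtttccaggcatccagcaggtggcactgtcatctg
CKM: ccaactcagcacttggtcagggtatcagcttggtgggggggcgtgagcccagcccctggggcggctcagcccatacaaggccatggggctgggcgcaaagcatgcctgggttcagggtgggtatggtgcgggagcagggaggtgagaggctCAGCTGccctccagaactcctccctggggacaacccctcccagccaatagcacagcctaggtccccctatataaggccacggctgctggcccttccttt
In the promoter of ACTG2 (chr2:73892758-73893007, plus strand) the capitals mark CAGCTG and the reverse complement of TATAAA, the TATA box.
ACTG2: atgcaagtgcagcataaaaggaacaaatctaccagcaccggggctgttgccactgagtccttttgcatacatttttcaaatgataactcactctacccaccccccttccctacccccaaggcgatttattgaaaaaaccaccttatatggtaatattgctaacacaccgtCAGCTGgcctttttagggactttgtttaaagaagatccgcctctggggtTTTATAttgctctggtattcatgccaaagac
The E-box thus lies 220, 194 and 99 bases before the start of MUSTN1, ANKRD2 and CKM, which rose, and 80 bases before that of ACTG2, which fell.

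Of 24 myogenic transcription factors and partners, 10 rose and 1 fell, against 6.81% and 8.25% of all genes, and their median log2 difference was 0.93 against 0.00 for all tested genes. With slide in the fit 6 rose over 29 arrays and 12 over 28. MYOG, the factor that commits myoblasts to differentiation, had log2 signals of 6.81 and 7.07 in growth media and 10.38, 10.33 and 10.57 in differentiation media. Its 3 differentiation media arrays were all above both others, and it rose by 3.49 ± 0.68 (SE; adjusted p = 0.000326). MEF2C, the partner of the myogenic factors in late gene activation, read 10.57 and 10.45 against 13.13, 13.25 and 13.28. The groups did not overlap, and the rise of 2.71 ± 0.74 (SE; adjusted p = 0.00653) had an adjusted p of 0.053 with slide in the fit and of 3.68e-10 with slide in the 28-array fit. MEF2A rose by 1.95 ± 0.17 and the muscle methyltransferase gene SMYD1 by 4.12 ± 1.03 (SE). MYF5, the early myogenic factor of dividing myoblasts, went the other way, with 13.02 and 12.91 in growth media and 10.51, 10.56 and 10.38 in differentiation media. All its differentiation media arrays were lower, and the difference was -2.49 ± 0.26 (SE; adjusted p = 1.04e-07).

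The myogenic determination factor MYOD1 was already bright in growth media. Its log2 signal was 16.49 and 16.44 there and 17.26, 17.36 and 17.32 in differentiation media, and the difference of 0.85 ± 0.13 (SE; adjusted p = 2.87e-05) was under 2-fold and not called, although the groups did not overlap. MYF6 had a difference of -0.50 and MEF2D of 0.72, both also under 2-fold. PAX7, the factor of satellite cells, was dim but well above background on both growth media arrays, with 5.00 and 4.68 against 4.69, 4.42 and 4.24. Those groups overlapped, and the difference of -0.39 had an adjusted p of 0.516, while the mean over its probes gave 1.93. Of 24 genes of muscle progenitors and repressors of the program, 5 (20.8%) rose and 4 (16.7%) fell, against 6.81% and 8.25% of all genes. ID1, an inhibitor that binds the partners of the myogenic factors, read 13.14 and 13.24 in growth media and 10.39, 10.38 and 10.20 in differentiation media, a difference of -2.86 ± 0.12 (SE; adjusted p = 1.15e-13) without overlap. ID2 fell with a difference of -1.93, ID3 had a difference of -0.85 that was not called, and TWIST1 and TWIST2 fell with -1.59 and -1.44. Members of this list also rose: the repressor SNAI1 by 4.65 ± 0.61, the Notch effector HEY1 by 3.50 ± 0.53 and the MYOD1 cofactor HES6 by 2.96 ± 0.75 (SE).

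Genes of the sarcomere, the contractile unit of muscle, rose as a group. Of 75 with a tested probe, 36 (48%) rose and 1 (1.33%) fell, against 6.81% and 8.25% of all genes. The median log2 difference was 2.29, and the arrays of the media did not overlap for 62 of the 75, against 66.5% of all tested genes without overlap. In the 28-array fit 45 rose and 1 fell at the same median. With slide in the fit of 29 arrays 17 rose and 1 fell, and with slide in the 28-array fit 45 rose. Leaving out growth media replicate 1 or 2 from the 29-array fit left 18 or 19 rises. The median log2 signal of the 75 genes was 7.72 and 7.79 on the growth media arrays and 10.26, 10.34 and 10.56 on the differentiation media arrays, so the list as a whole separated the media on every array. ACTA1, the actin of skeletal muscle, read 13.59 and 13.54 in growth media and 17.30, 17.39 and 17.42 in differentiation media. It rose by 3.81 ± 1.15 (SE; adjusted p = 0.0129) with no overlap, with an adjusted p of 0.0887 with slide in the 29-array fit and of 0.066 and 0.0667 without growth media replicate 1 or 2. With slide in the 28-array fit the rise of ACTA1 was 4 (adjusted p = 1.03e-07). Titin (TTN) rose by 4.14 ± 1.00, nebulin (NEB), which spans the thin filament, by 4.61, the chaperone UNC45B by 4.22 and the thin-filament stabilizer KLHL40 by 4.68 ± 1.74 (SE; adjusted p = 0.0418). The call of KLHL40 was lost when any 1 of the 5 arrays was left out (adjusted p = 0.0715 to 0.146) and with slide in the 29-array fit (adjusted p = 0.197), and over 28 arrays with slide its adjusted p was 2.29e-09.

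The myosin heavy chains of developing muscle had a large spread in the shared error. MYH3, the embryonic form, measured 11.515 and 11.407 against 15.005, 15.181 and 15.274. Its difference of 3.69 ± 1.48 (SE) had an adjusted p of 0.06 and was not called, although the groups did not overlap, and in the 28-array fit the SE was 0.33 and the adjusted p 1.58e-08. The perinatal form MYH8 rose by 3.65 ± 1.18 (SE; adjusted p = 0.0196), but was not called with slide in the 29-array fit (adjusted p = 0.116) or without growth media replicate 1 or 2 (adjusted p = 0.0809 and 0.095). With slide in the 28-array fit the rise of MYH8 was 3.83 (adjusted p = 1.87e-09). MYH2, a fast adult form, rose by 3.25 ± 0.83 (SE; adjusted p = 0.00384). The adult and eye muscle forms MYH1, MYH4 and MYH13 were well above background on none of the 5 arrays. Desmin (DES), an intermediate filament that myoblasts already make, read 16.38 and 16.58 against 17.31, 17.21 and 17.44, a difference of 0.84 that was not called. The only member that fell was TPM3, a tropomyosin with many non-muscle products, with a difference of -1.5, and with the probes of a gene averaged none fell.

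Calcium handling genes moved with the sarcomere. Of 39, 24 (61.5%) rose and none fell, against 6.81% and 8.25% of all genes, with a median of 1.99. In the 28-array fit 28 rose, with slide in the 29-array fit 14 rose, and with slide in the 28-array fit 28 rose, while leaving out growth media replicate 1 left 15. ATP2A1 had log2 signals of 7.61 and 7.47 in growth media and 12.80, 12.81 and 13.18 in differentiation media. The ryanodine receptor RYR1, the calcium release channel, rose by 3.21, its partner triadin (TRDN) was at least 4.01-fold higher, and the muscle sodium channel SCN4A was at least 19.3-fold higher. STIM1 and ORAI1, the sensor and the channel of store-operated calcium entry, had differences of -0.05 and -0.07.

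Of 20 genes of the acetylcholine receptor and the neuromuscular synapse, 14 (70%) rose and none fell, against 6.81% and 8.25% of all genes. Their median was 1.31, and the media did not overlap for any of the 20, against 66.5% of all tested genes. The fetal receptor subunit CHRNG read 7.36 and 7.14 in growth media and 10.34, 10.37 and 10.63 in differentiation media. It rose by 3.20 ± 0.62 (SE; adjusted p = 0.00032), and all its differentiation media arrays were higher. The other subunits CHRNB1, CHRND and CHRNA1 rose by 2.40, 2.20 and 1.13 (0.96 and not called for CHRNA1 with scaling to the 75th percentile), while CHRNE, the subunit of the adult receptor, had a difference of -0.47. The neuregulin receptor ERBB3 rose by 3.57, the agrin receptor LRP4 by 2.17 and the adaptor DOK7 by 2.25, and the receptor kinase MUSK had a difference of -0.18. Of 23 genes of the dystrophin complex, 8 (34.8%) rose and 3 (13%) fell. Dystrophin (DMD) rose by 1.5, dystroglycan (DAG1) by 1.71 ± 0.31 and caveolin 3 (CAV3) by 1.68 ± 0.38 (SE), while the laminin chain LAMA2 fell with -1.22.

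Among 47 genes of muscle energy supply, 13 (27.7%) rose and 6 (12.8%) fell, against 6.81% and 8.25% of all genes. CKM, the muscle creatine kinase, had log2 signals of 9.79 and 9.75 in growth media and 14.09, 14.33 and 14.48 in differentiation media. The media did not overlap, and the rise of 4.53 ± 1.70 (SE; adjusted p = 0.0445) was close to the threshold, whereas the 28-array fit gave an SE of 0.29 and an adjusted p of 1.04e-10. With slide as a term the rise was 3.39 with an adjusted p of 0.215 over 29 arrays and 4.68 with 1.53e-09 over 28. Without any 1 of the 5 arrays it was not called (adjusted p = 0.0741 to 0.151). The brain-type creatine kinase CKB rose by 4.00 and the muscle phosphoglycerate mutase PGAM2 by 4.00. Myoglobin (MB) had a difference of 3.24, the glycogen phosphorylase PYGM of 3.13 and the insulin-responsive glucose transporter SLC2A4 of 2.82. MB, PYGM and SLC2A4 were well above background on no growth media array, so the sizes of their differences depend on background signal. The general glucose transporter SLC2A1 fell with -1.71, lactate dehydrogenase A (LDHA) with -2.70, phosphoglycerate kinase PGK1 with -1.53 and hexokinase HK1 with -1.53. None of 57 respiratory chain subunits was called by limma, with a median of 0.28, although 40 passed the adjusted p alone with differences under 2-fold. The adjusted p alone was passed by 8051 of all 18398 tested genes. The muscle subunit COX6A2 was called in the 28-array fit with 2.75 (adjusted p = 2.22e-07). Of 31 genes of myoblast adhesion and fusion, 6 (19.4%) rose and 4 (12.9%) fell, or 2 fell with normexp and without differentiation media replicate 1. MYMK, the fusion protein myomaker, read 14.49 and 14.54 against 14.85, 14.73 and 14.74, a difference of 0.26 that was not called, while the mean over its probes gave 2.06 (adjusted p = 0.000137).

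**Figure D2:**
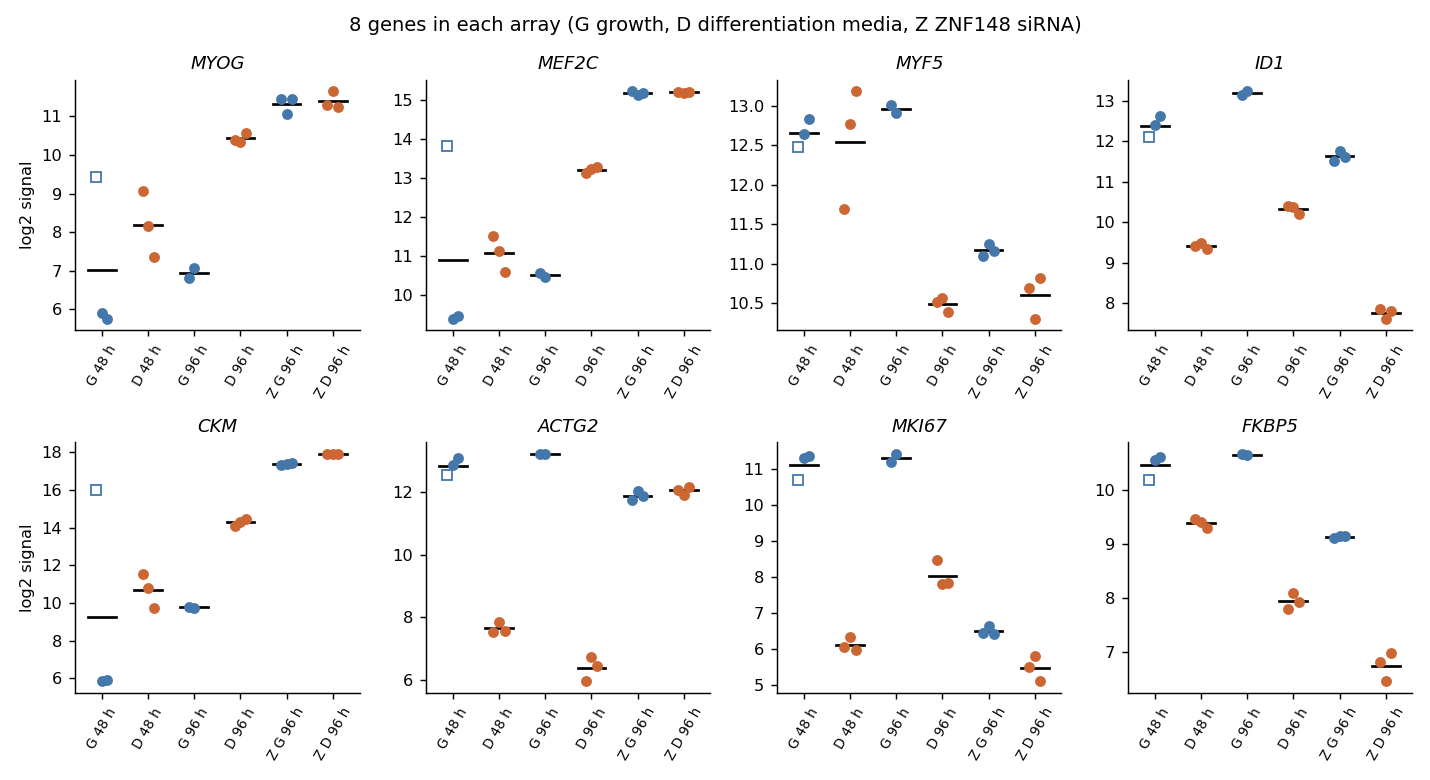
Log2 signal (y axis) of 8 genes on each array with nontargeting siRNA at 48 and 96 h and with ZNF148 siRNA at 96 h, by medium, where a point is 1 array, a black line is the mean of a group and the open square is the 48 h array that stands apart. At 96 h with nontargeting siRNA MYOG, MEF2C and CKM are higher and MYF5, ID1, ACTG2, MKI67 and FKBP5 lower on all 3 differentiation media arrays.

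Genes of cell division fell almost without exception. Of 68 genes of the G2 and M phases 64 (94.1%) fell and none rose, against 8.25% and 6.81% of all genes, with a median log2 difference of -2.97. Of 58 genes of S phase 50 (86.2%) fell and none rose, with a median of -1.95. With slide in the fit 63 and 48 fell. MKI67, the proliferation antigen Ki-67, had log2 signals of 11.18 and 11.42 in growth media and 8.47, 7.80 and 7.83 in differentiation media. The groups did not overlap, and the difference was -3.27 ± 0.23 (SE; adjusted p = 4.43e-10). RRM2, which makes deoxynucleotides for replication, read 10.79 and 10.42 against 6.15, 5.94 and 6.46, a difference of -4.42 ± 0.28 (SE; adjusted p = 7.3e-11). UBE2C, a ubiquitin-conjugating enzyme of mitotic exit, went from 13.11 and 13.13 to 9.20, 9.13 and 9.19, a difference of -3.94 ± 0.13 (SE; adjusted p = 4.5e-15). UBE2C was lower on every differentiation media array. Among the other members, the kinetochore gene SPC25 fell with -4.00, the mitotic kinase TTK with -3.79, the replication factor MCM10 with -3.82, the checkpoint gene CLSPN with -4.28 and the cyclin CCNE2 with -3.74. Those not called include the phosphatase CDC25B at 0.54, CKAP2 at -0.09 and the single-strand binding subunits RPA1, RPA2 and RPA3 at -0.50, 0.38 and -0.79.

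The promoters of RRM2 (chr2:10122489-10122738, plus strand) and of the hyaluronan receptor HMMR (chr5:163460382-163460631, plus strand), a member of the G2 and M phase list picked for its promoter after its values were seen, show the motifs of this group. Capitals mark CCAAT on either strand, a site of the factor NF-Y, and in HMMR also TTTGAA, the core of an element common in genes of late cell cycle.
RRM2: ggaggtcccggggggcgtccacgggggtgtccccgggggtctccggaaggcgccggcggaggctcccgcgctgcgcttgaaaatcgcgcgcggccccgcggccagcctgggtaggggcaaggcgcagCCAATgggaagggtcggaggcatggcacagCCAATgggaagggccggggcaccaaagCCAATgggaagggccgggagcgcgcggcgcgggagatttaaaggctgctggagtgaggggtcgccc
HMMR: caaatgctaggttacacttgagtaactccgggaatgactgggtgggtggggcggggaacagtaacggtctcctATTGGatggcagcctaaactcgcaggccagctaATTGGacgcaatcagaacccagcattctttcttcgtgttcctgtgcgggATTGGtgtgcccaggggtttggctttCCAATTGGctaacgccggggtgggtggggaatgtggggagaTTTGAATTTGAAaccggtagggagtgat
HMMR fell with a log2 difference of -3.63. CCAAT was found in 67.2% of the 58 promoters of G2 and M phase genes in the table and in 54.5% of 44 of S phase genes, against 33% of all 27305 promoters of the same length, and TTTGAA in 46.6% and 2.27% against 13.6%. CAGCTG was found in 34% of 53 promoters of sarcomere genes and in 39.3% of 28 of calcium handling genes, against 13.8% of all. Over all 923 genes that rose and have a promoter in the table, CAGCTG was found in 19.5%, and over the 1194 that fell in 12.1%. Motifs were searched on both strands, and these shares are descriptions of letters, not of binding.

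Clustered histone genes fell with the cell cycle: 39 of 61 (63.9%) were lower and none higher, against 8.25% and 6.81% of all genes. The median log2 difference was -1.42, and the media did not overlap for 60, against 66.5% of all tested genes. Leaving out single arrays gave 39 to 42 falls. H3C15 had log2 signals of 13.36 and 13.67 in growth media and 9.22, 9.40 and 9.12 in differentiation media. Its difference was -4.26 ± 0.35 (SE; adjusted p = 3.91e-09). The linker histone H1-5 fell with -4.32 ± 0.26, H2AC16 with -4.30 ± 0.17 and H2AC13 with -4.62 ± 0.24 (SE). The largest positive difference of the list was 0.94, for H1-6, which was well above background on no array of either medium. Many of these genes are near-identical copies, so their probes may share transcripts. In the promoter of H3C15 (chr1:149852358-149852607, plus strand) the capitals mark CCAAT and TATAAA.
H3C15: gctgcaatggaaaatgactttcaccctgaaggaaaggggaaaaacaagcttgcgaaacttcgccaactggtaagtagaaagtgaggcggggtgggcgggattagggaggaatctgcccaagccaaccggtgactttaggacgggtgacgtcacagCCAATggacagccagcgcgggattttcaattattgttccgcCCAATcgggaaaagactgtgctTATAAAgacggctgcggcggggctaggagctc
CCAAT was found in 85.7% and TATAAA in 67.9% of 56 promoters of listed histone genes, against 33% and 11.1% of all promoters.

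Of 30 cell cycle inhibitors, pocket proteins and G1 genes, 2 (6.67%) rose and 5 (16.7%) fell, against 6.81% and 8.25% of all genes, with a median of 0.01. CDKN1C, the inhibitor p57, read 13.75 and 13.82 in growth media and 17.62, 17.64 and 17.76 in differentiation media. It rose by 3.89 ± 0.72 (SE; adjusted p = 0.000177), and the groups were far apart. The antiproliferative gene BTG2 rose by 1.79 ± 0.11 (SE). CDKN1A, the inhibitor p21, had 9.53 and 9.58 against 10.17, 9.80 and 10.50, a difference of 0.60 under 2-fold, and CDKN1B, p27, a difference of 0.02. The pocket protein gene RBL1 fell with -2.97 ± 0.21 (SE), whereas RB1 and RBL2 had differences of -0.07 and -0.10. Cyclin D1 (CCND1) had a difference of -0.34 and was not called. Of 28 p53 target genes 3 rose and none fell.

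**Figure D3:**
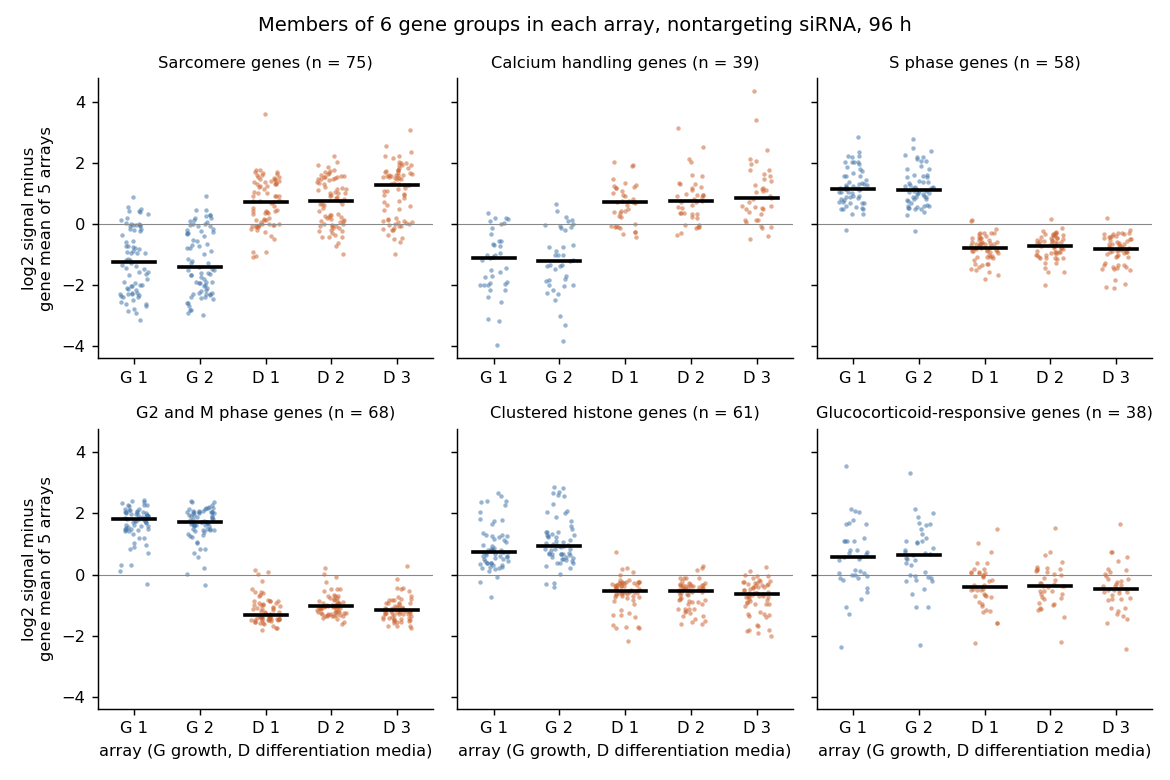
Each point is a gene of 1 of 6 lists on 1 of the 5 arrays, as log2 signal minus the gene's mean over the 5 arrays (y axis), and the black line is the median of the list on that array. The median of the sarcomere genes is -1.23 and -1.42 on the growth media arrays and 0.73, 0.73 and 1.28 on the differentiation media arrays, and that of the G2 and M phase genes is 1.82 and 1.73 against -1.32, -1.05 and -1.17.

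Genes that glucocorticoids are known to induce were lower more often than higher in differentiation media. Of 38, 19 (50%) fell and 4 (10.5%) rose, against 8.25% and 6.81% of all genes, with a median of -1.02. FKBP5, a chaperone partner of the glucocorticoid receptor, had log2 signals of 10.67 and 10.64 in growth media and 7.80, 8.08 and 7.93 in differentiation media. No arrays overlapped, and the difference was -2.72 ± 0.14 (SE; adjusted p = 2.58e-12). TSC22D3, also known as GILZ, fell with -1.78 ± 0.13 (SE; adjusted p = 1.17e-09), the clock gene PER1 with -2.09 and the zinc finger gene ZBTB16 with -3.13. The metallothionein MT1E, which binds zinc, read 17.25 and 17.22 against 14.02, 13.81 and 13.76. It was lower on every differentiation media array, with -3.37 ± 0.11 (SE; adjusted p = 2.54e-15), and MT1M, MT1X and MT2A fell with -2.80, -1.92 and -1.83. The members that rose were CDKN1C, PDK4, FOXO1 and SGK1, and the receptor itself, NR3C1, had a difference of -0.06.

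Genes that serum and growth factors switch on were lower more often than higher. Of 41 immediate early and serum response genes, 14 (34.1%) fell and 3 (7.32%) rose, against 8.25% and 6.81% of all genes, with a median of -0.58. After AREG came the growth factor EREG, at least 13.7-fold lower, the secreted peptide precursor VGF, with -3.82 ± 0.30, and the AP-1 subunit FOSL1, with -3.37 ± 0.20 (SE). The negative feedback phosphatase of ERK signalling DUSP6 fell with -2.29, the factor ETV4 with -2.72 and MYC with -1.5, while ATF3, EGR3 and BTG2 rose by 2.63, 1.33 and 1.79. EGR3 was well above background on no growth media array, so the size of its rise depends on background signal. Of 32 cytokines and chemokines, 14 (43.8%) fell and 3 (9.38%) rose, or 8 and 4 with normexp. The pentraxin PTX3 read 13.24 and 13.26 in growth media and 9.67, 9.79 and 9.83 in differentiation media, without overlap and with a difference of -3.48 ± 0.19 (SE). IL6 fell with -3.09, CSF3 with -3.0 and IL1B with -2.79, and beside CXCL12 the macrophage factor IL34 and IL32 rose by 3.28 and 1.53. CSF3 was well above background on no differentiation media array, so the size of its fall depends on background signal. IL17B had a difference of 4.67 that was not called, with 28 arrays an adjusted p of 0.000258.

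**Figure D4:**
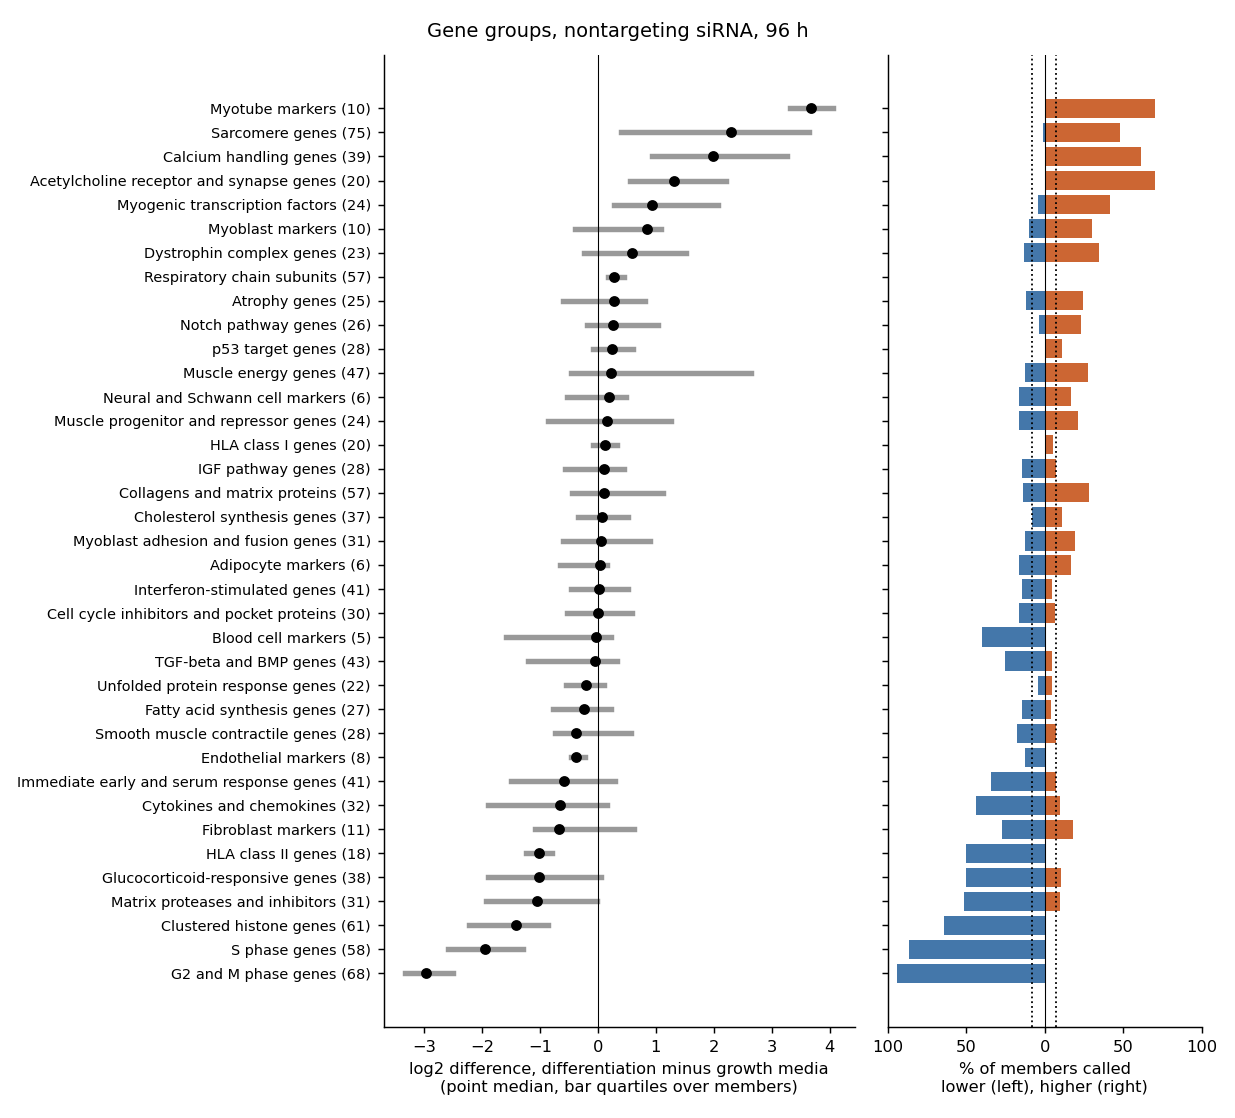
For each of 37 gene lists, the median log2 difference (differentiation minus growth media, 96 h, nontargeting siRNA) with its lower and upper quartile over genes, and the percentage of its tested members called higher and lower. Dotted lines mark the shares over all tested genes, 6.81% higher and 8.25% lower. The sarcomere, calcium handling and synapse lists pass them upwards and the cell cycle, histone and glucocorticoid lists downwards. Other lists pass them too, such as myotube markers (70% higher) and matrix proteases and inhibitors (51.6% lower). The glucocorticoid list also passes upwards (10.5%).

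Matrix genes changed in both directions. Of 57 collagens and other matrix proteins 16 (28.1%) rose and 8 (14%) fell, against 6.81% and 8.25% of all genes, with a median of 0.10. COL16A1 rose by 3.54 ± 0.51 (SE), and by 1.04 to 3.6 over the processing alternatives. COL5A3 rose by 3.05 ± 0.90 (adjusted p = 0.0875 with slide in the fit and 0.0632 and 0.0559 without growth media replicate 1 or 2) and COL1A1, a chain of type I collagen, by 1.67 ± 0.34 (SE). With slide in the 28-array fit the rise of COL5A3 was 3.07 (adjusted p = 1.79e-05). The crosslinking enzyme LOX fell with -3.27 ± 0.14 (SE) and tenascin C (TNC) with -2.44. The collagen chains COL1A2 and COL6A1 had differences of 0.20 and 0.26. Of 31 matrix proteases and their inhibitors 16 (51.6%) fell and 3 (9.68%) rose, with a median of -1.05. Among those that fell were the proteases PLAU and PLAT, with -1.52 and -2.71, and the urokinase receptor PLAUR fell with -3.42 ± 0.13 (SE). The collagenase MMP1 read 10.67 and 10.56 against 7.24, 7.65 and 7.08, a difference of -3.29 ± 0.18 (SE) without overlap, while MMP11 and MMP15 rose by 2.12 and 1.48. Of 28 contractile and cytoskeletal genes of smooth muscle 5 (17.9%) fell and 2 (7.14%) rose. Next to the fall of ACTG2 its paralog ACTA2, which developing skeletal muscle also makes, had 12.84 and 12.77 in growth media and 15.02, 15.07 and 15.18 in differentiation media. It rose by 2.28 ± 0.28 (SE; adjusted p = 9.66e-07), so these 2 smooth muscle actins changed in opposite directions.

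Signalling lists held rises and falls, against 6.81% and 8.25% of all genes. Of 26 genes of the Notch pathway 6 (23.1%) rose and 1 (3.85%) fell. The receptor NOTCH3 rose by 2.78 ± 0.39, the ligand DLL1 by 1.77 ± 0.12 and the target HES4 by 4.39 ± 0.56 (SE). Of 43 genes of TGF-beta and BMP signalling, 11 (25.6%) fell and 2 (4.65%) rose: the BMP antagonist GREM1 fell with -3.28 ± 0.27 (SE), the activin subunit INHBB was at least 7.81-fold lower, and the ligands TGFB2 and TGFB3 rose by 2.17 and 1.28. Of 28 genes of insulin-like growth factors 2 (7.14%) rose and 4 (14.3%) fell. IGF1 was at least 3.31-fold higher, but with normexp its difference was 0.69 and not called, and the imprinted noncoding RNA MEG3 rose by 2.69 ± 0.40 (SE), while IGF2, at 17.55 and 17.43 against 18.31, 18.33 and 18.36, had a difference of 0.85 under 2-fold. Of 25 genes of atrophy and protein breakdown 6 (24%) rose and 3 (12%) fell, led by the muscle ubiquitin ligase TRIM63, with a rise of 3.91 ± 0.99 (SE). Of 37 genes of cholesterol synthesis and uptake 4 (10.8%) rose and 3 (8.11%) fell, and of 27 of fatty acid synthesis 1 (3.7%) rose and 4 (14.8%) fell. Of 22 genes of the unfolded protein response 1 (4.55%) rose and 1 (4.55%) fell.

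HLA class II genes, which antigen-presenting cells use and which were measured in these myoblasts, fell in part. Of 18 genes of the class II pathway 9 (50%) fell and none rose, against 8.25% and 6.81% of all genes, with a median of -1.01. Their activator CIITA read 9.51 and 9.53 in growth media and 6.93, 7.0 and 7.03 in differentiation media, a difference of -2.53 ± 0.66 (SE; adjusted p = 0.0044) without overlap. HLA-DMB fell with -1.71 ± 0.32 and HLA-DOA with -1.40 ± 0.41 (SE), the latter with -0.86 and an adjusted p of 0.101 when slide was in the fit and 0.0729 without growth media replicate 1. Of 20 genes of the class I pathway 1 (5%) rose and none fell, and HLA-B and HLA-C had differences of -0.18 and -0.09. Probes of HLA genes may also pick up related HLA genes. Of 41 interferon-stimulated genes 2 (4.88%) rose and 6 (14.6%) fell, with a median of 0.02, but with normexp 1 rose and none fell. The ubiquitin-like protease USP18 read 10.57 and 10.52 against 13.19, 13.23 and 13.12 and rose by 2.63 ± 0.36 (SE; adjusted p = 6.02e-06), with no overlap. CXCL11 was called lower on the strength of 1 growth media array, with 2.10 and 7.17 against 2.14, 2.04 and 2.08, and its groups overlapped. Without growth media replicate 2 its difference was -0.01.

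Markers of cell types were read on the same 5 arrays. All 10 myoblast markers with a tested probe were well above background on both growth media arrays and 9 of 10 on every differentiation media array. Of these markers 3 (30%) rose and 1 (10%) fell, against 6.81% and 8.25% of all genes. All 10 myotube markers were well above background on all 5 arrays and 7 rose, with a median of 3.67, or 9 in the 28-array fit and 3 with slide in the 29-array fit or without growth media replicate 1 or 2. The log2 of their summed signal was 15.4 to 15.5 in growth media and 18.2 to 18.3 in differentiation media. Fibroblast markers, which cultured myoblasts share in part, were present in both media: 10 of 11 were well above background on every array, 2 rose and 3 fell, and their summed log2 signal was 17.9 to 18 against 17.3 to 17.4. The fibroblast factor TCF21 was below background on all 5 arrays. The adipocyte hormone ADIPOQ, the endothelial marker EMCN, the glial markers GFAP and SOX10, the synaptic marker SYP and the blood marker ITGAM were below background on all 5 as well. Other members were measured. Well above background on every growth media array were 4 of 6 adipocyte and 6 of 8 endothelial markers. The same held for 2 of 6 neural and 3 of 5 blood markers. On every differentiation media array the counts were 4, 6, 2 and 2. Called higher were 1 adipocyte and 1 neural marker. Called lower were 1 adipocyte, 1 endothelial, 1 neural and 2 blood markers, or 1 blood marker with slide in the fit. CD14 made the summed log2 signal of 5 blood markers fall from 11.7 to 11.8 in growth media to 7.89 to 7.94 in differentiation media, and the endothelial receptor KDR was at least 13.3-fold lower. The part of other cells in any of these values was not tested, and in such bulk RNA a change in the share of cells of a kind and a change in RNA per cell cannot be told apart.

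The same 2 media were compared at 48 h with nontargeting siRNA, on 6 other arrays, to ask which changes differed between the times. At 48 h 1430 genes (7.77%) were higher and 1512 (8.22%) lower in differentiation media. Of the genes that rose at 96 h 512 (40.9%) also rose at 48 h, and of those that fell 905 (59.7%) also fell, and in the 28-array fit the counts were 774 (57.8%) and 953 (62.6%). A test of the difference itself, the change with the media at 96 h minus that at 48 h, called 884 genes (4.8%) more positive and 962 (5.23%) more negative at 96 h. Sarcomere genes had a median of 2.29 at 96 h and of 0.18 at 48 h, where 4 rose and 3 fell, but without the array that stands apart the median at 48 h was 1.57 and 42 rose. The difference between the times called 14 sarcomere genes higher and 2 lower, and 14 and 5 in the 28-array fit. On the differentiation media arrays at 48 h the median sarcomere signal was 8.4, 8.08 and 7.39, below all 3 arrays at 96 h.

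Cell cycle genes were lower at both times, and G2 and M phase genes less so at 96 h. Their median difference between the media was -4.05 at 48 h and -2.97 at 96 h. Of the 68, 36 were called higher in the test of the difference and none lower, against 4.8% and 5.23% of all tested genes. MKI67 shows it: in differentiation media the 48 h arrays read 6.06, 6.34 and 5.97 and the 96 h arrays 8.47, 7.80 and 7.83, while in growth media it was 10.69, 11.29 and 11.36 at 48 h. All 3 later differentiation media arrays lay above the earlier ones, and the difference between the times was 1.72 (adjusted p = 0.000293). Of the 58 S phase genes 8 were called higher in that test and none lower, against the same 4.8% and 5.23%. MYF5 was not changed at 48 h, with 12.48, 12.64 and 12.84 in growth media and 11.69, 12.77 and 13.19 in differentiation media, and its change differed between the times by -2.38 (adjusted p = 2.7e-05). HLA class II genes had a median of 0.29 at 48 h, and 12 of 18 were called more negative at 96 h, against 5.23% of all tested genes. Within differentiation media 1059 genes (5.76%) were higher and 776 (4.22%) lower at 96 than at 48 h, and within growth media 80 genes (0.435%) differed, or 313 in the 28-array fit.

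With ZNF148 siRNA at 96 h the same change of media was followed by fewer changes, on 6 arrays that are not among the 5. There 266 genes (1.45%) were higher and 910 (4.95%) lower in differentiation media. Of the genes that rose with nontargeting siRNA 59 (4.71%) also rose with ZNF148 siRNA, and of those that fell 423 (27.9%) also fell. The test of the difference between the siRNAs, nontargeting minus ZNF148, called 1275 genes (6.93%) more positive and 1022 (5.55%) more negative. Sarcomere genes had a median difference between the media of 2.29 with nontargeting and 0.44 with ZNF148 siRNA, and the difference was called for 9 higher and 3 lower of the 75, or for 38 and 4 in the 28-array fit. Their median log2 signal with ZNF148 siRNA was 12.84, 12.83 and 12.92 already in growth media and 13.27, 13.34 and 13.34 in differentiation media, above all 5 nontargeting arrays. G2 and M phase genes had a median of -1.02 with ZNF148 siRNA, and 56 of 68 were called more negative with nontargeting siRNA.

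Some single genes changed with the media differently by siRNA. ACTG2 had log2 signals of 11.73, 12.04 and 11.88 in growth media and 12.06, 11.92 and 12.17 in differentiation media with ZNF148 siRNA. Those groups overlapped, and its change with the media differed between the siRNAs by -7.01 (adjusted p = 6.92e-14). TIMP3 read 10.05, 10.14 and 10.13 against 9.64, 9.61 and 9.73 without overlap, and the difference between the siRNAs was -3.95 (adjusted p = 3.6e-12). ID1 fell with both siRNAs, from 11.52, 11.75 and 11.62 to 7.84, 7.61 and 7.80 with ZNF148 siRNA. There its change was -3.88 against -2.86 with nontargeting siRNA, a difference of 1.02 (adjusted p = 5.69e-05). FKBP5 changed by -2.39 with ZNF148 and -2.72 with nontargeting siRNA, and that difference of -0.33 had an adjusted p of 0.223. Interferon-stimulated genes had a median of -1.13 with ZNF148 siRNA, where 21 of 41 fell, against 4.95% of all tested genes. In the test between the siRNAs 22 were called more positive with nontargeting siRNA, against 6.93% of all tested genes.

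**Figure D5:**
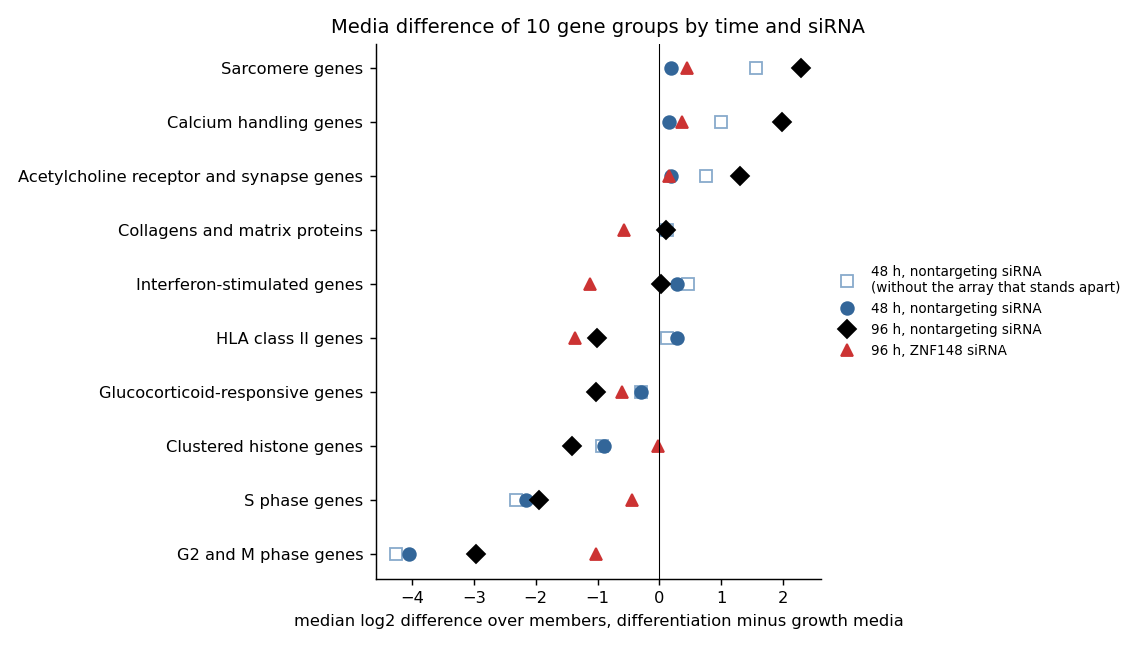
Median log2 difference between differentiation and growth media (axis in log2 units) of 10 gene lists with nontargeting siRNA at 48 h, in the fits of 29 and 28 arrays, with nontargeting siRNA at 96 h and with ZNF148 siRNA at 96 h. The sarcomere median is 0.18 (29 arrays) or 1.57 (28 arrays) at 48 h, 2.29 at 96 h and 0.44 with ZNF148 siRNA, and the median of G2 and M phase genes is -4.05 at 48 h, -2.97 at 96 h and -1.02 with ZNF148 siRNA.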

How the data were processed

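RNA of 29 LHCN-M2 samples in 10 groups was measured on 1-colour Agilent arrays, and the samples were grouped by their labels. Per the file headers, the authors extracted the spots with Agilent Feature Extraction 10.7.3.1. The deposited intensity is the background-subtracted signal of a spot on a linear scale, with a mark for spots well above background and no scaling between arrays. The deposited log2 values are the authors' normalized matrix, in which each of the 29 columns matched its own array best, and were used as an alternative. The genome build hg19 is named in some array headers and no build in the others.

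Of 62976 spots per array, 2075 control spots and the outlier spots were left out. The log2 of each signal was taken, spots were averaged to 58201 probes, and arrays were quantile-normalized, as the study's methods describe. RefSeq accessions named 31104 probes of 22439 genes. A probe had to be well above background on 2 or more arrays, and the 38714 that were entered a 2-sided test in 1 fit with 10 group means (lmFit and eBayes of limma 3.58.1 in R 4.3.3, with version 1.17.8 of data.table). Differences between effects were contrasts of contrasts in that fit. The number of arrays limits the precision. An "at least" fold sets the mean of the brighter group against the dimmer group's mean of, per array, the higher of the probe's own signal and the lowest signal among probes well above background. The fit was tested on simulated data.

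The groups, the 37 gene lists and the tests were chosen with earlier results of these data known. Named genes are the 15 largest rises and falls measured on every array without overlap, the 5 largest bounds each way, up to 4 called members of each list with the largest change, 28 genes set by name and the 5 largest differences each way of each contrast of contrasts. A few genes that these rules name are not reported here. Members named beyond these were chosen after their values were seen. The alternatives tried were 75th percentile scaling, background correction by normexp (offset 50, on median signals, as mean signals were not used here), the authors' values, other filters, fewer arrays, a slide or replicate block, array weights, other variances, single arrays left out, the methods' t-test, no fold threshold and averaged probes. A fit of 28 arrays with slide and one of 23 arrays were added after the data were seen. Promoters are the first RefSeq window of a gene in GRCh38.p14, found for 14097 of the 18398 genes. Figures were drawn with Python 3.11.15 and matplotlib 3.10.9.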

Additional observations from a re-analysis of the deposited data

Results flagged for a closer look

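The change with the media differed between 96 and 48 h for 1846 genes with nontargeting siRNA, as tested by the difference of the 2 effects in the limma fit. Of the genes measured in all 4 groups, FOLR1, a folate receptor, differed most in the direction of 96 h, by 4.94 on the log2 scale, or by 2.66 in the 28-array fit without the array that stands apart. KCNE5, a potassium channel subunit, differed by 4.82 (3.85 in the 28-array fit), the M-band gene MYOM3 by 4.51 (2.97), AIF1L by 4.51 (3.94) and the neurotrophin receptor NGFR by 4.42 (2.95). In the other direction the differences were -4.28 for the prostacyclin synthase PTGIS (-4.21 in the 28-array fit), -4.26 for the calcium pump ATP2A3 (-4.15), -3.47 for the peptidase DPP4 (-3.31), -3.15 for the retinoic acid binding protein CRABP2 (-3.24) and -3.07 for OSBPL10 (-3.01). PTGIS had log2 signals of 8.98, 9.45 and 9.68 in differentiation media at 48 h and of 6.70, 7.36 and 6.41 at 96 h, where it overlapped with growth media at 7.42 and 6.86.

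Between nontargeting and ZNF148 siRNA at 96 h, the change with the media differed for 2297 genes. The largest differences towards nontargeting siRNA were 6.76 for C1QL4, 6.36 for CD24, 6.31 for PRRT4, 6.13 for ANKRD2 and 5.82 for CELA2B. C1QL4 had log2 signals of 9.83, 9.78 and 9.85 in growth media and 7.97, 7.91 and 7.83 in differentiation media with ZNF148 siRNA, so it changed in opposite directions with the 2 siRNAs. The largest differences in the other direction were -7.01 for ACTG2, -4.53 for ADIRF, -4.26 for PRR11, -3.95 for TIMP3 and -3.91 for H2AC4. That of PRR11 rests on uneven arrays, with 6.88, 5.47 and 10.31 in differentiation media with ZNF148 siRNA. No cause of these differences was tested.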

How the results depend on the processing

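Of 162 called genes named by the rule, none changed direction under any alternative, and 143 kept their call with slide as a block, 149 with normexp and 162 in the 28-array fit. Both growth media arrays share 1 slide, so the slide term rests on other groups. Normexp background correction gave 1797 changed genes in place of 2769 (805 higher, 992 lower), 1228 that differed between the times, 35 between 96 and 48 h in growth media and 1018 in differentiation media. Without the fold threshold these counts were 8051 (3948 higher, 4103 lower), 5734, 440 and 7825, and 5831 genes differed between the siRNAs. In growth media the count of 80 between the times was 313 in the 28-array fit, 319 in that fit with slide, 136 with array weights, 72 to 201 with single arrays left out (201 without growth media replicate 2 of 96 h) and 0 by limma with only its own arrays in the fit, where 1095 genes had an unadjusted p under 0.05. With slide as a block 17 sarcomere and 14 calcium handling genes rose, and 18 to 33 and 15 to 23 did with single arrays left out, although 28 arrays with slide gave 45 and 28. Normexp also gave 2 falls in place of 4 in each of the fusion, fatty acid and insulin-like growth factor lists and 2 rises in place of 4 in the cholesterol list. PAX7 was 1.93 higher with its probes averaged (adjusted p = 0.000289), against -0.39, and the cause was not tested. The methods' t-test called 1312 higher and 1454 lower unadjusted, and 1188 and 1332 after Benjamini-Hochberg. Over the alternatives the share of rises among calls was 41.1% to 49.1%.

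The replicate number as a block gave 2787 changed genes, called MYH3 (adjusted p = 0.0474) and 1 respiratory chain subunit where none was called without it, and moved the other counts of calls over all genes, and of rises and falls of the lists at 96 h, by at most 1.5 times, apart from 1 fall in place of 2 among blood markers. The deviations of same-numbered arrays of the 2 media correlated at 0.0282 and 0.0437, so the numbers were not taken to pair the samples.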
